A study of Mus musculus with 6 samples.

Results

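The genes described here are 34 hypoxia-induced and glycolytic genes, of the 54446 genes listed in the count tables. They were chosen by name as 4 transcription factors and oxygen sensors of the hypoxia response, 3 glucose and lactate transporters, 14 glycolytic enzymes, 3 regulators of glycolytic flux, 2 secreted vascular peptides, 2 mitophagy receptors and 6 further hypoxia-induced genes. For a symbol listed under 2 identifiers, which applied to Aldoa, the identifier with more counts was used. All 34 were found, and 30 of them had enough counts to be tested.

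The study measured gene expression in single cells of GL261, a mouse glioblastoma line grown in medium with fetal calf serum (2 libraries), and of GL261-GSCs, stem-like cells derived from that line and grown in a defined medium for glioblastoma stem cells (4 libraries). No treatment, time point or genetic change is given for either group, and both derive from 1 line, so the medium and the derived population cannot be told apart. The cultures, for which the protocol names cells and neurospheres, were dissociated, treated with a lysis buffer containing a mild detergent and run through a droplet instrument with a kit that reads the 5′ end of transcripts. The labels do not say whether whole cells or nuclei were loaded, nor that replicates came from separate cultures, so p-values measure the spread between these libraries, which may be technical.

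Between 4264 and 7275 cells were called per library, with a median of 6670 to 15477.5 unique molecular identifiers (UMIs, each a counted RNA molecule) per cell. GL261-GSCs replicate 4 stood apart by its median of 6670 UMIs per cell and by the 41.2% of its UMIs that lay in called cells, against 56.7% to 65.7% in the other libraries. The libraries shared 32 to 59 cell barcodes pairwise, where 26.1 to 57.9 would coincide by chance. Vim, Nes, Sox2 and Cd44, genes of glioblastoma cells, were present in all libraries, whereas the progenitor genes Olig2, Ptprz1 and Fabp7 were under 1 CPM (UMIs of a gene per 1000000 UMIs in called cells, with each library's total scaled by TMM, the trimmed mean of M-values) in both GL261 libraries and between 49.6 and 787 CPM in the GL261-GSCs. Over 18337 tested genes that are neither members nor on the pathway lists used below, the 2 most alike GL261-GSCs libraries were replicates 3 and 4, in which 0.382% of genes were over 2-fold apart (pseudocount of 1 CPM). Replicates 1 and 2 followed with 2.11%, and pairs of libraries across these pairs had 3.87% to 9.79%. The labels do not name this division, so it is described below by the values of each library and is given no test.

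Cells sense oxygen through prolyl hydroxylases, the EGLN enzymes, which mark the alpha subunits of the hypoxia-inducible factors (HIF) for degradation while oxygen is present. When oxygen is scarce the alpha subunit persists, pairs with ARNT and binds a short motif near its target genes. These targets raise glucose uptake, glycolysis and lactate export, limit the oxidation of pyruvate in mitochondria and promote the growth of blood vessels. In glioblastoma this response is known from the cells around necrotic areas, and many glycolytic enzymes are at the same time expressed at high levels in most proliferating cells.

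Expression was compared as UMIs summed over the cells of each library. The glycolytic enzymes did not separate the groups in 1 direction: their summed level was 7509 and 7827 CPM in the serum-grown libraries, and 5294, 5009, 10400 and 11046 CPM in GL261-GSCs replicates 1 to 4. Replicates 1 and 2 thus lay below both GL261 libraries and replicates 3 and 4 above them. The other 20 members summed to 760 and 797 CPM in GL261 and to 1190, 1066, 2449 and 2890 CPM in the GL261-GSCs, so that each GL261-GSCs library exceeded GL261. Without Ddit4 and Slc16a3, chosen after their values were seen, the remaining 18 summed to 527 and 556 CPM in GL261 and to 584, 573, 1200 and 1568 CPM in the GL261-GSCs, so these 2 genes held most of the excess in replicates 1 and 2. The mean of replicates 3 and 4 was 2.08 times that of replicates 1 and 2 for the glycolytic enzymes and 2.37 times for the other members. In cells of 6000 to 12000 UMIs, a window with the same bounds in each library, these ratios were 2.69 and 2.68. The window kept 888 to 2744 cells per library, and depth within it was not compared. It takes different parts of the libraries. In GL261-GSCs replicate 1 all its 946 of 4264 cells lay under the median of 15374.5 UMIs. In replicate 4 the median of 6670 UMIs lay inside it.

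**Figure D1:**
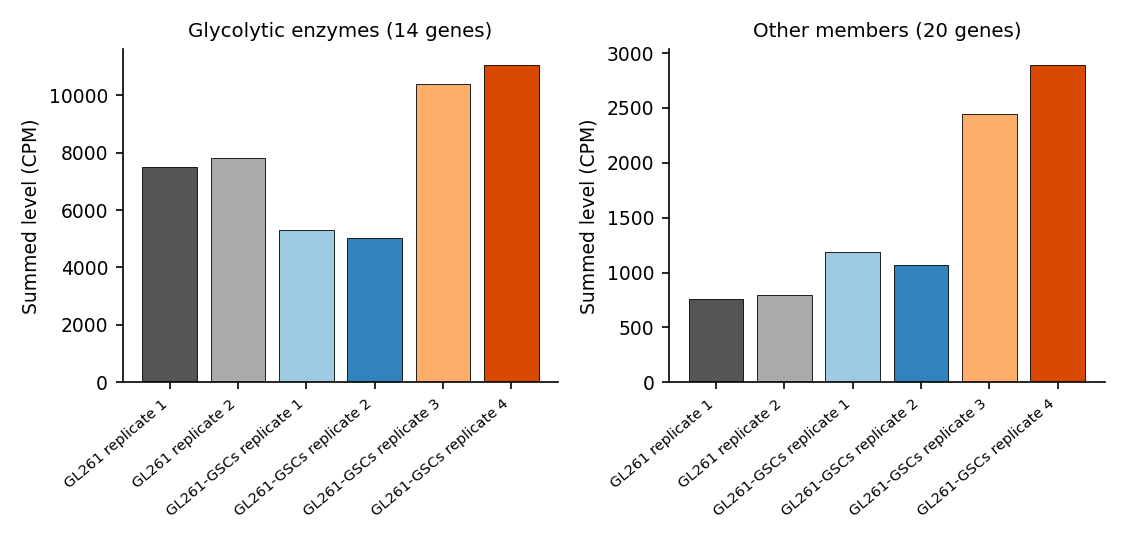
Summed level in CPM (vertical axis, from 0) of the 14 glycolytic enzymes (left) and the 20 other members (right), with 1 bar per library. For the enzymes, GL261-GSCs replicates 1 and 2 lie below the GL261 libraries at 5294 and 5009 CPM and replicates 3 and 4 above them at 10400 and 11046 CPM.

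Between the groups, 7 of the 30 tested members rose in GL261-GSCs (Egln3, Slc2a1, Slc16a3, Pdk1, Bnip3l, Ddit4 and Mxi1) and 2 fell (Slc2a3 and Gapdh), by edgeR's quasi-likelihood test with a Benjamini-Hochberg adjusted p under 0.05 over all 18439 genes tested. These are 23.3% and 6.67% of the members, beside 15.8% of all genes called higher and 14.1% called lower. All genes comprised 2920 higher and 2594 lower calls, and 3491 and 2034 when libraries were scaled by their total UMIs instead of by TMM. Over all genes the median log2 fold change was 0.04 with TMM and 0.18 with that scaling. The members' median log2 fold change was 0.69, and 23 of 30 were positive, beside 9600 of the 18439 genes tested. Relative to GL261 that median was -0.03 for the mean of GL261-GSCs replicates 1 and 2 and 1.17 for the mean of replicates 3 and 4. In 9 members each library of the GL261-GSCs exceeded each GL261 library and in 2 each lay below, beside 28.7% and 28.0% of all genes. The other 19 members overlapped between the groups, as did 7986 of the 18439 genes tested. With only 2 GL261 libraries, leaving out either of them left none of the 9 calls, and without GL261-GSCs replicate 3 the calls in the rising direction were 3.

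The members were chosen with the order of the GL261-GSCs libraries already known from earlier results of these data. The counts that follow therefore describe this order and do not test it. Within the GL261-GSCs, replicates 3 and 4 both exceeded replicates 1 and 2 in 27 of the 30 tested members, beside 32.4% of all genes tested. In 17 of them the means of these pairs were over 2-fold apart, beside 9.60% of all genes. Hif1a and Pfkfb3 lay lower in replicates 3 and 4, as did 31.2% of all genes, and Car9 overlapped. The median ratio of replicates 3 and 4 over 1 and 2 was 2.19 for the members and 1.0 for all genes. The order of the members by this ratio began with Bnip3 (8.70), Ankrd37 (8.08), Vegfa (5.01), P4ha1 (3.88) and Egln3 (3.78).

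**Figure D2:**
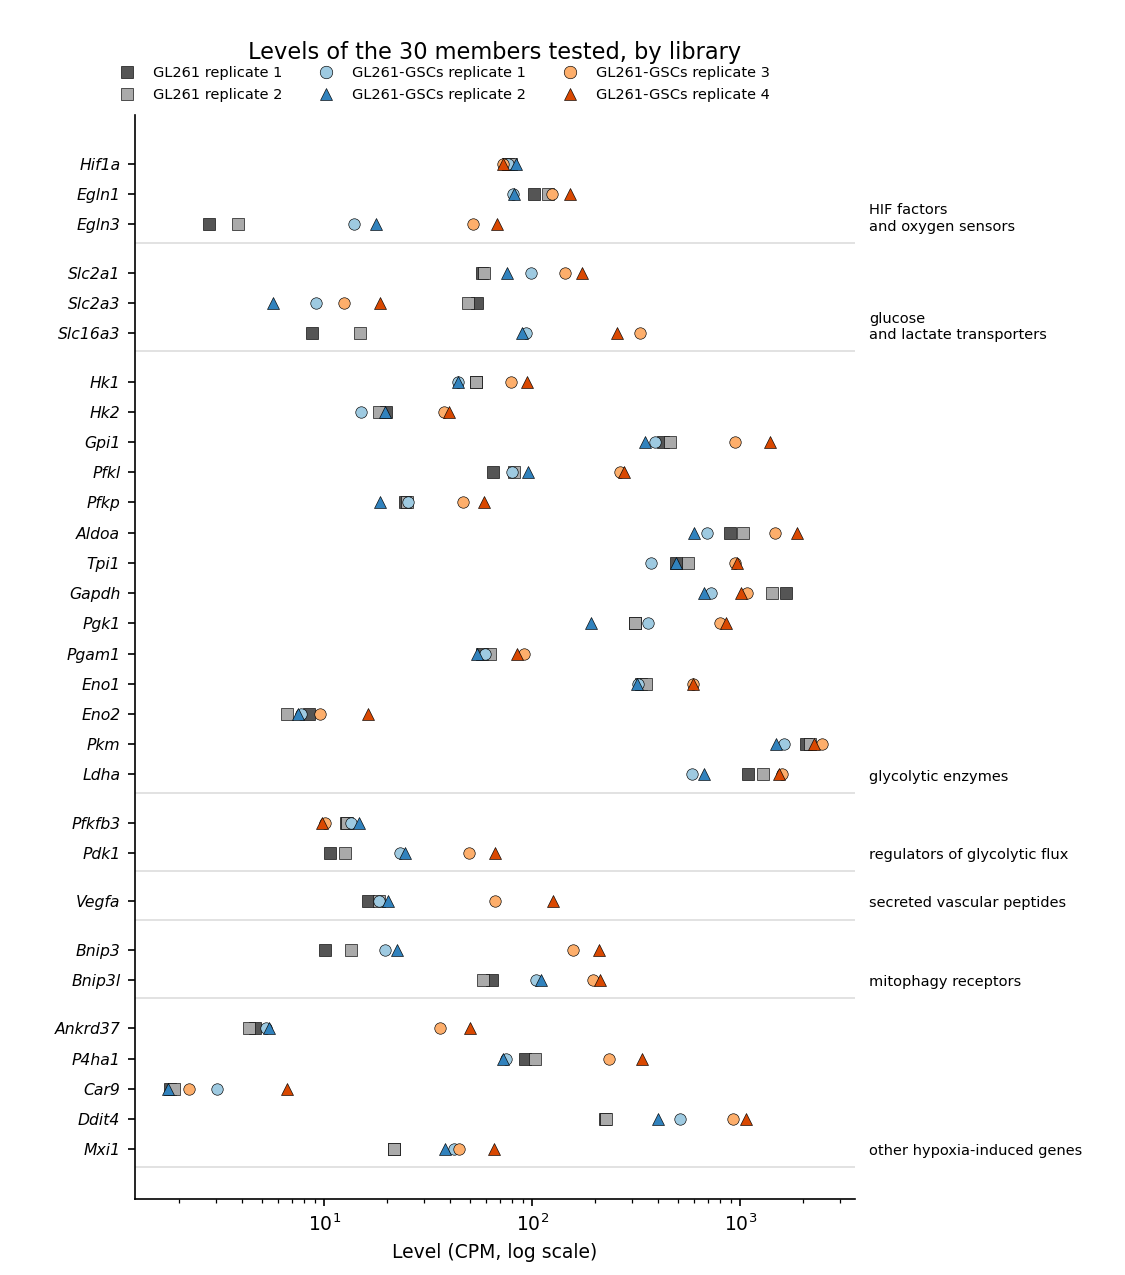
Level in CPM (horizontal axis, log scale) of each of the 30 tested members (rows, by role) in the 6 libraries; squares are GL261, circles and triangles GL261-GSCs. In 27 rows both orange symbols (replicates 3 and 4) lie to the right of both blue symbols (replicates 1 and 2).

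Bnip3 and Ankrd37 had the widest spread among the GL261-GSCs libraries. Bnip3, a receptor on the outer mitochondrial membrane that directs mitochondria to autophagy, was at 10.1 and 13.4 CPM in GL261 and at 19.7, 22.4, 157 and 209 CPM in the 4 GL261-GSCs libraries, in the order of their replicate numbers, as in all that follows. Each of the 4 was above GL261, by 0.84 on the log2 scale for the mean of replicates 1 and 2 and by 3.96 for that of replicates 3 and 4. Its log2 fold change was 3.12 ± 1.15 (SE), which did not pass the test (edgeR adjusted p = 0.0820), although it passed with DESeq2 (adjusted p = 0.0222). Ankrd37, an ankyrin repeat protein and classical HIF target, was at 4.62 and 4.34 CPM in GL261 and at 5.26, 5.44, 36.1 and 50.3 CPM in the GL261-GSCs. Here replicates 1 and 2 were close to GL261, and the log2 fold change of 2.44 ± 1.07 did not pass (edgeR adjusted p = 0.129).

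The letters of the HIF motif occur in the promoters of both genes. To show where these letters lie, the 250 bases before the start site are given 5′ to 3′ on the gene's strand for Bnip3 and Ankrd37, which had the largest ratios, for Slc16a3 and Egln3, which had the largest rises between the groups, and for Gpi1, the glycolytic enzyme with the largest ratio (3.17), which has no match. Vegfa and P4ha1, whose ratios lie between, are not shown: Vegfa has 2 matches before 1 of its start sites and 0 before the other, and P4ha1 has 3. The sequences are from RefSeq on GRCm38.p6. Capitals mark ACGTG or GCGTG, the core of the HIF motif, on either strand, so that CACGT and CACGC are the same words read on the other strand.
Bnip3: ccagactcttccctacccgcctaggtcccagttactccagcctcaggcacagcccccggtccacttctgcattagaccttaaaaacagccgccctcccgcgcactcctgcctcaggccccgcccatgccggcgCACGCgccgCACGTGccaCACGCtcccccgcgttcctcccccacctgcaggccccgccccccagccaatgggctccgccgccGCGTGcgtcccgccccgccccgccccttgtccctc
Ankrd37: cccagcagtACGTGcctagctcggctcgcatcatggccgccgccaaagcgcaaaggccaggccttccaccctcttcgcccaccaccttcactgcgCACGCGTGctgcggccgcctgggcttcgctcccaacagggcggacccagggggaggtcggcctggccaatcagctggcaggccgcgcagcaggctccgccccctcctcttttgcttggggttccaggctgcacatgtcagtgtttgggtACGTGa
Slc16a3: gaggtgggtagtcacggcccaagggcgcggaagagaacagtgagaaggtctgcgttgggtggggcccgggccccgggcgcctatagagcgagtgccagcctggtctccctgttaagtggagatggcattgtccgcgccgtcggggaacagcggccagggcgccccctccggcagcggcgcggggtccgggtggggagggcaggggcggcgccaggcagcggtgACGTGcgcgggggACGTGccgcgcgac
Egln3: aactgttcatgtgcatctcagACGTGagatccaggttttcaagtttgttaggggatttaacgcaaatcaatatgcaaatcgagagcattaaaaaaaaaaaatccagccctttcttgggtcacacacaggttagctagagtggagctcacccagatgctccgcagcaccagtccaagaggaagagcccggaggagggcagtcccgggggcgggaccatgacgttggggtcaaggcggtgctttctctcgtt
Gpi1: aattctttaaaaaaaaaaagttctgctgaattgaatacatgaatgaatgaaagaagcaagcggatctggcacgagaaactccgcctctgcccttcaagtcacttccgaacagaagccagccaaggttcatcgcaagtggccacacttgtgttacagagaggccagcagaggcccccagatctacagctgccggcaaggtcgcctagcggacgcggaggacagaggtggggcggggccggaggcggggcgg

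These windows are at chr7:138909507-138909756 for Bnip3, chr8:45999851-46000100 for Ankrd37, chr11:120948817-120949066 for Slc16a3, chr12:54203875-54204124 for Egln3 and chr7:34230337-34230586 for Gpi1. The Bnip3 window holds 5 matches, of which 2 overlap in the palindrome CACGTG, and the Ankrd37 window holds 4. The Slc16a3 window holds 2 matches, the Egln3 window 1 and the Gpi1 window 0. RefSeq start sites were found for 30 of the 34 members, and 27 of these 30 genes (90%) had a match before at least 1 start site, beside 41.54% of all 27025 genes in the table. Of the tested genes 11392 had a start site in the table, and 59.32% of those had a match. Genes with more start sites have more windows in which a match can occur. By window, 33 of the members' 42 (78.57%) had a match, beside 53.5% for the tested genes and 38.6% for all. The members were chosen by name as hypoxia-induced and glycolytic genes, so these shares describe them and test nothing. The members' windows held on average 16.4 CG pairs, those of the tested genes 15.5 and all windows 9.86; the part of CG content in these shares was not tested. Among members whose 2 pairs of GL261-GSCs libraries were over 2-fold apart the share of genes with a match was 14 of 16 (87.5%), close to the 90% of all members. A match describes letters and does not show that a factor binds there.

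Among the factors and sensors, the HIF subunit transcript was level while a sensor that is itself a HIF target rose. Hif1a, the oxygen-regulated alpha subunit, was at 76.5 and 78.7 CPM in GL261 and at 76.5, 83.1, 72.5 and 72.0 CPM in the GL261-GSCs, with a log2 fold change of -0.03 ± 0.12 (edgeR adjusted p = 0.869). HIF activity is controlled mainly through the protein, which was not measured. Egln3, a prolyl hydroxylase, was at 2.80 and 3.83 CPM in GL261 and at 14.0, 17.7, 52.0 and 67.7 CPM in the GL261-GSCs. The groups did not overlap, and Egln3 rose by 3.51 ± 0.78 on the log2 scale (edgeR adjusted p = 0.0164), the rise in replicates 1 and 2 being 2.26 and that in replicates 3 and 4 being 4.17 over the GL261 mean. Egln1, the main oxygen-sensing hydroxylase, was at 102 and 119 CPM in GL261 and at 80.4, 81.9, 125 and 152 CPM in the GL261-GSCs, with the groups overlapping. Epas1, which encodes HIF-2 alpha, had 1 UMI in all libraries together.

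The 3 transporters did not overlap between the groups, 2 lying higher and 1 lower in the GL261-GSCs. Of all genes tested, 28.7% lay apart higher and 28.0% apart lower. Slc16a3 encodes MCT4, which exports lactate, and was at 8.71 and 14.9 CPM in GL261 and at 93.1, 89.1, 328 and 256 CPM in the GL261-GSCs. It rose by 4.02 ± 0.73 on the log2 scale (edgeR adjusted p = 0.00782), a 16.2-fold change. Slc2a1, the glucose transporter GLUT1, was at 57.2 and 58.5 CPM in GL261 and at 98.6, 75.7, 144 and 173 CPM in the GL261-GSCs, a log2 rise of 1.09 ± 0.34 that lay at the threshold (edgeR adjusted p = 0.0499, between 0.052 and 0.228 in the 9 alternatives that lose it). Slc2a3, the higher-affinity glucose transporter GLUT3, moved the other way, from 54.2 and 49.2 CPM in GL261 to 9.08, 5.69, 12.5 and 18.5 CPM in the GL261-GSCs. It fell by 2.18 ± 0.40 on the log2 scale (edgeR adjusted p = 0.00839), a 4.53-fold change, and stayed far under GL261 in replicates 3 and 4.

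Of the 14 glycolytic enzymes, none rose between the groups and Gapdh fell, beside 15.8% of all genes called higher and 14.1% called lower. Gapdh, glyceraldehyde-3-phosphate dehydrogenase, was at 1666 and 1425 CPM in GL261 and at 722, 667, 1081 and 1009 CPM in the GL261-GSCs. Its log2 fold change was -0.83 ± 0.23 (edgeR adjusted p = 0.0347), and the adjusted p was 0.0679 with total-UMI scaling and 0.189 in cells of 6000 to 12000 UMIs. Gapdh has 171 pseudogene copies in the annotation, which held UMIs equal to 2.21% of its own and to between 2.11% and 2.35% in each library, so the UMIs counted at the copies were few and in like proportion. Pgam1, phosphoglycerate mutase, had 11.3% as many UMIs in its copies, and between 10.15% and 11.87% in each library. Its values are uncertain to an extent that was not measured.

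All 14 enzymes were higher in GL261-GSCs replicates 3 and 4 than in 1 and 2, by ratios of 1.5 to 3.17 with a median of 2.22. In 13 of them the GL261 and GL261-GSCs libraries overlapped, as they did in 7986 of all 18439 genes tested. Gpi1, glucose-6-phosphate isomerase, was at 424 and 459 CPM in GL261 and at 388, 348, 940 and 1393 CPM in the GL261-GSCs. Pfkl, a phosphofructokinase at the committed step of glycolysis, was at 65.0 and 81.8 CPM in GL261 and at 80.2, 95.4, 265 and 275 CPM in the GL261-GSCs. Ldha, which reduces pyruvate to lactate, was at 1091 and 1283 CPM in GL261 and at 586, 667, 1583 and 1540 CPM in the GL261-GSCs. For Gpi1 and Ldha, replicates 1 and 2 were under and replicates 3 and 4 over both GL261 libraries, and the fitted log2 fold changes of 0.80 ± 0.59 and -0.12 ± 0.45 averaged over that spread.

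The remaining enzymes followed the same order. Aldolase A (Aldoa) was at 894 and 1027 CPM in GL261 and at 689, 601, 1461 and 1864 CPM in the GL261-GSCs. Phosphoglycerate kinase (Pgk1), an ATP-forming step, was at 311 and 310.2 CPM in GL261 and at 361, 191, 795 and 852 CPM in the GL261-GSCs. Pyruvate kinase (Pkm), the last ATP-forming step, was at 2070 and 2160 CPM in GL261 and at 1621, 1486, 2479 and 2264 CPM in the GL261-GSCs. Replicates 1 and 2 were under GL261 for Aldoa and Pkm, and on both sides of it for Pgk1. Hk1 and Hk2, the hexokinases that trap glucose in the cell, had ratios of 1.97 and 2.23 between the pairs of GL261-GSCs libraries; Pfkp, Tpi1, Pgam1, Eno1 and Eno2 had 2.40, 2.21, 1.54, 1.84 and 1.70.

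**Figure D3:**
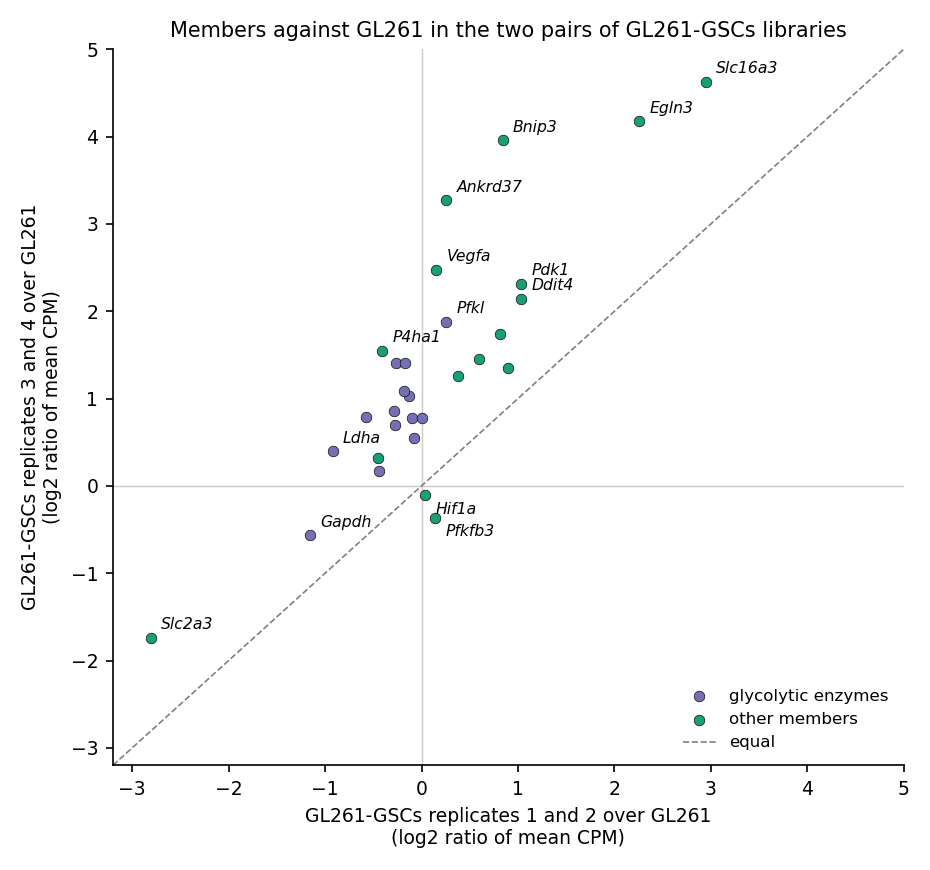
Log2 ratio of mean CPM to the GL261 mean for GL261-GSCs replicates 1 and 2 (horizontal axis) and replicates 3 and 4 (vertical axis), with 1 point per tested member; the dashed line marks equal ratios. All points but Hif1a and Pfkfb3 lie above the line, and most glycolytic enzymes lie left of 0 and above 0.

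Of the regulators of flux, the kinase that limits the oxidation of pyruvate rose. Pdk1, a kinase that inactivates pyruvate dehydrogenase, was at 10.7 and 12.6 CPM in GL261 and at 23.2, 24.4, 49.6 and 66.3 CPM in the GL261-GSCs. The groups did not overlap, and the log2 rise was 1.81 ± 0.49 (edgeR adjusted p = 0.0322). Pfkfb3, which makes the activator of phosphofructokinase, was at 12.7 and 12.8 CPM in GL261 and at 13.4, 14.7, 10.1 and 9.72 CPM in the GL261-GSCs, with replicates 3 and 4 the lowest. Pfkfb4, a related enzyme, had 13 UMIs in GL261 and 6 in the GL261-GSCs and was not tested.

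Vegfa, the growth factor of blood vessels, differed among the GL261-GSCs libraries more than between the groups. It was at 16.3 and 18.3 CPM in GL261 and at 18.2, 20.1, 66.4 and 126 CPM in the GL261-GSCs. Replicates 1 and 2 lay close to GL261, and the log2 fold change of 1.74 ± 0.84 did not pass (edgeR adjusted p = 0.162). Adm, the vasodilator adrenomedullin, had 0 UMIs in GL261 and 30 in the GL261-GSCs, too few to test.

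Bnip3l rose together with the stress regulator Ddit4 and with Mxi1. Bnip3l, the second mitophagy receptor, was at 64.2 and 58.1 CPM in GL261 and at 105, 110, 195 and 213 CPM in the GL261-GSCs, a log2 rise of 1.35 ± 0.35 (edgeR adjusted p = 0.0271). Ddit4, also called REDD1, restrains mTORC1 under stress and was at 223 and 226 CPM in GL261 and at 514, 404, 921 and 1066 CPM in the GL261-GSCs. It rose by 1.69 ± 0.43 on the log2 scale (edgeR adjusted p = 0.0253, and 0.0507 in cells of 6000 to 12000 UMIs). Mxi1, an antagonist of Myc, was at 21.6 CPM in both GL261 libraries and at 42.2, 38.0, 44.5 and 65.6 CPM in the GL261-GSCs, a log2 rise of 1.14 ± 0.24 (edgeR adjusted p = 0.0138). For these 3 genes replicates 1 and 2 already lay above GL261.

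The remaining hypoxia-induced members gave low or uneven values. P4ha1, a collagen prolyl hydroxylase subunit, was at 92.1 and 103 CPM in GL261 and at 75.0, 72.2, 233 and 339 CPM in the GL261-GSCs, again with GL261 between the pairs of libraries. Car9, a carbonic anhydrase at the cell surface often used as a hypoxia marker, was at 1.81 and 1.89 CPM in GL261 and at 3.05, 1.77, 2.24 and 6.62 CPM in the GL261-GSCs, so that replicates 1, 3 and 4 lay above GL261, replicate 4 the most, and replicate 2 just below it. Ndrg1 had 2 UMIs in GL261 and 3 in the GL261-GSCs.

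The shares of several paralogs within their families differed between the groups. Slc2a3 made up 48.7% and 45.7% of the UMIs of Slc2a1 and Slc2a3 in GL261 and 6.99% to 9.69% in the GL261-GSCs. Slc16a3 made up 33.0% and 46.5% of the UMIs of Slc16a1 and Slc16a3 in GL261 and 77.4% to 93.0% in the GL261-GSCs. Pdk1 made up 16.5% and 18.7% of the 4 pyruvate dehydrogenase kinases in GL261 and 34.5%, 38.6%, 57.8% and 63.8% in the GL261-GSCs. For each of these 3 families the groups did not overlap. Egln3 rose from 1.65% and 1.99% of the 3 hydroxylases to between 9.86% and 26.6%, and Aldoc, the aldolase of brain, from 0.798% and 0.657% of the aldolases measured to between 7.85% and 13.4%.

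Pfkp held 20.4% and 17.6% of the phosphofructokinases in GL261 and 10.0% to 14.5% in the GL261-GSCs. Ldhb, the lactate dehydrogenase subunit of oxidative tissues, held 4.53% and 3.95% with Ldha in GL261, 17.1% and 14.9% in GL261-GSCs replicates 1 and 2, and 5.61% and 5.05% in replicates 3 and 4. The share of Ldhb thus came close to GL261 in the replicates in which Ldha was high. Bnip3 held 13.6% and 18.8% with Bnip3l in GL261, 15.8% and 17.0% in replicates 1 and 2, and 44.5% and 49.6% in replicates 3 and 4. Hk2, Eno2 and Pfkfb3 overlapped between the groups. There are 15 ways of dividing 6 libraries into 2 and 4, too few for an exact permutation test of a share to reach 0.05 (its two-sided p is at least 0.133 where the smaller tail is doubled), and the shares were given no test.

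The pathways around the members were read from 5 further lists of 83 genes, of which 72 were tested. In these, 12 genes rose and 14 fell, 16.7% and 19.4%, near the 15.8% and 14.1% of all genes. The list median log2 fold change was 0.04, equal to that of all genes. Of 28 further HIF target genes 4 rose and 4 fell, with a median of 0.09. Bhlhe41, a transcriptional repressor, rose by 3.25 on the log2 scale, Zfp395 by 2.23 and Car12, a carbonic anhydrase, by 1.99. The falls included Angptl4, a secreted inhibitor of lipoprotein lipase, with 1026 UMIs in GL261 and 0 in the GL261-GSCs, at least 681-fold lower against a floor of 3 UMIs over the group. Loxl2, a collagen crosslinking enzyme, fell by 4.18 on the log2 scale.

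In the same HIF target list, also chosen with this order known, replicates 3 and 4 exceeded 1 and 2 in 18 of 28 genes. Of all genes tested 32.4% did so. The median ratio was 1.59, beside 1.0 for all genes, and 12 ratios were over 2-fold, beside 9.60% of all genes. Of the pathway's regulators 1 of 9 rose and 3 fell, beside 15.8% and 14.1% of all genes. Hif3a, a HIF alpha subunit that lacks part of the usual activation domain, had 4 UMIs in GL261, all in replicate 1, and 10.9, 10.2, 22.2 and 29.0 CPM in the GL261-GSCs (log2 fold change 9.10, edgeR adjusted p = 0.00103). Cited2, which competes with HIF for its coactivators, fell by 2.46 on the log2 scale, Egln2 by 0.65 and Arnt, the partner subunit, by 0.51. Among the 9 regulators, GL261-GSCs replicates 3 and 4 exceeded 1 and 2 in 4, lay below them in 1 and overlapped in 4. Of all genes tested 32.4% lay above and 31.2% below. The regulators' median ratio was 1.06.

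Among 19 further genes of glycolysis and pyruvate use, 5 rose and 4 fell, beside 15.8% and 14.1% of all genes. Aldoc rose from 7.2 and 6.79 CPM in GL261 to 58.7, 76.2, 218 and 289 CPM in the GL261-GSCs, a log2 fold change of 4.52 ± 0.82 (edgeR adjusted p = 0.00764). Bpgm, bisphosphoglycerate mutase, rose by 1.65 and Pfkm, the muscle-type phosphofructokinase, by 1.19, while Eno3 fell by 1.79, Mpc2, a subunit of the mitochondrial pyruvate carrier, by 0.66 and the kinase Pdk3 by 0.48. The other subunit of that carrier, Mpc1, which is named here after its value was seen, rose by 0.90. Of 9 genes of glycogen metabolism Pygl, liver glycogen phosphorylase, rose by 6.59 from 6 UMIs in GL261, Gbe1, the branching enzyme, rose by 1.17 and Ugp2 fell by 0.45. Of 7 pentose phosphate genes none rose (edgeR; Tkt, transketolase, was nearest with a log2 fold change of 0.68 and an adjusted p of 0.0501), and Taldo1 and Pgls, both enzymes of that route, fell by 1.70 and 0.86. In this short list replicates 3 and 4 lay under 1 and 2 in 5 of 7 genes, beside 31.2% of all genes tested. The median ratio was 0.704, beside 1.0 for all genes, whereas that of the glycolytic enzymes was above 1.

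In single cells, each thinned to 2000 UMIs, the higher sums in GL261-GSCs replicates 3 and 4 extended over most cells. The median cell held 14 UMIs of glycolytic enzymes in both GL261 libraries, 10 in GL261-GSCs replicates 1 and 2, 20 in replicate 3 and 22 in replicate 4. The 10th percentile of cells in replicates 3 and 4 was 10 UMIs, the median of replicates 1 and 2. Of the other members the median cell held 1 UMI in both GL261 libraries, 2 in replicates 1 and 2, 5 in replicate 3 and 6 in replicate 4.

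**Figure D4:**
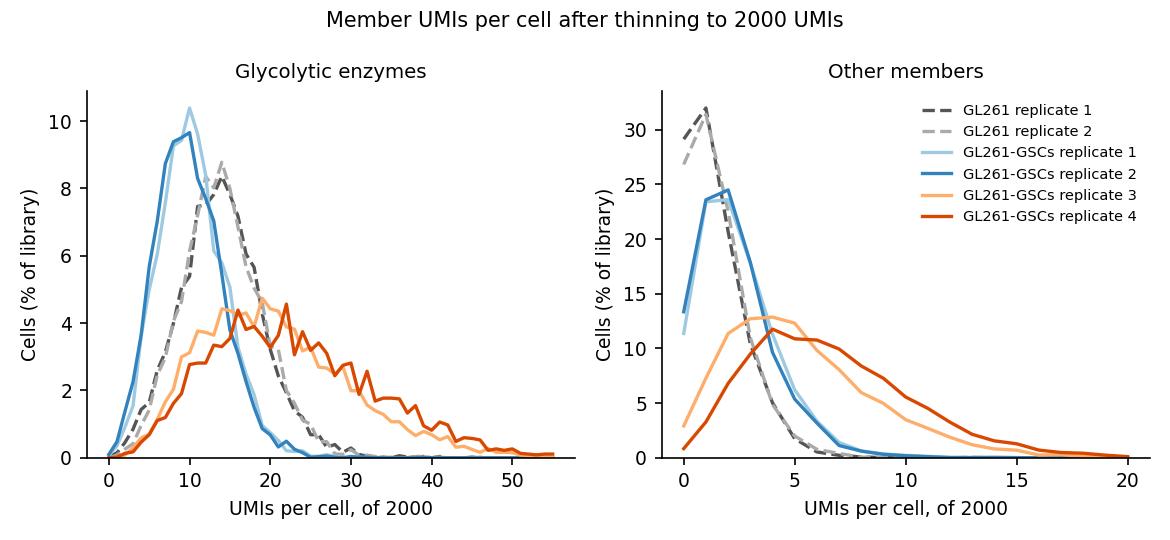
Percent of cells of each library (vertical axis) by the number of UMIs of glycolytic enzymes (left) and of other members (right) that a cell holds after thinning to 2000 UMIs (horizontal axes). The curves of GL261-GSCs replicates 3 and 4 are broader and lie to the right, with medians of 20 and 22 UMIs for the enzymes against 10 in replicates 1 and 2.

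By the variance over the mean, cells also differed more from one another in those 2 libraries. This measure can rise with the mean alone. The mean enzyme sum was 20.7 and 23.0 UMIs per cell in replicates 3 and 4, and 10.0 to 14.1 in the other libraries. The variance over the mean of the enzyme sum, which is 1 for counting noise alone, was 1.97 and 1.81 in GL261, 1.65 and 1.76 in GL261-GSCs replicates 1 and 2, and 4.19 and 4.71 in replicates 3 and 4. Over cells of 1 library the Pearson correlation between the enzyme sum and the sum of the other members was 0.409 in replicate 3 (7275 cells) and 0.358 in replicate 4 (4512 cells), and between -0.03 and 0.03 in the other 4 libraries (4264 to 5870 cells). These are descriptions over cells that share a library and 1 depth, and the larger means in replicates 3 and 4 leave more room for a correlation. The enzyme sum had a Spearman correlation with the mitochondrial share of a cell of -0.395 and -0.222 in replicates 3 and 4, against -0.294 to -0.266 in the other libraries. Its correlation with the cell's depth before thinning was 0.107 and 0.297 in replicates 3 and 4, and 0.124 to 0.215 elsewhere. For the sum of the other members the correlation with depth was -0.218 and -0.117 in replicates 3 and 4, and -0.112 to -0.00936 elsewhere.

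The share of cells with a UMI followed the same order for the genes with the largest ratios. At 2000 UMIs, Bnip3 was seen in 1.77% and 2.54% of GL261 cells and in 3.0%, 4.28%, 24.2% and 32.1% of GL261-GSCs cells. The exact 95% binomial intervals of replicates 3 and 4 were 23.2% to 25.2% and 30.7% to 33.5%. Without thinning these shares were 12.7% and 14.0% in GL261 and 24.6%, 22.8%, 62.4% and 62.9% in the GL261-GSCs. Free RNA was estimated from barcodes of 100 to under 1000 UMIs. At 2000 UMIs it would give Bnip3 in 0.0818% and 0.106% of GL261 cells and in 0.234%, 0.217%, 2.12% and 6.05% of GL261-GSCs cells. Without thinning it would give 0.631% and 0.722% in GL261 and 1.79%, 1.28%, 10.8% and 18.8% in the GL261-GSCs. Both estimates were under the measured share in each library.

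Slc16a3, which rose between the groups, was also seen in more cells in each GL261-GSCs library. It was seen in 1.46% and 2.50% of GL261 cells and in 16.6%, 15.8%, 46.4% and 39.7% of cells in the GL261-GSCs, where free RNA would give 0.037% and 0.054% in GL261 and 0.521%, 0.490%, 3.71% and 4.21% in the GL261-GSCs. Vegfa was seen in 2.91% and 3.6% of GL261 cells and in 3.92%, 4.22%, 13.8% and 25.5% of GL261-GSCs cells, where free RNA would give 0.0857% and 0.0864% in GL261 and 0.178%, 0.143%, 0.720% and 2.72% in the GL261-GSCs. Slc2a3 was seen in 9.07% and 8.02% of GL261 cells and in 2.02%, 1.38%, 2.89% and 3.79% of GL261-GSCs cells, where free RNA would give 0.239% and 0.158% in GL261 and 0.056%, 0.0362%, 0.156% and 0.368% in the GL261-GSCs. For these 3 genes the measured share was above that of free RNA in each library, by the same estimate and with the same limit as for Bnip3. No cell in GL261 had a UMI of Adm, which allows a share of up to 0.0624% and 0.0600% of cells with a UMI in replicates 1 and 2 by the limit of 3 counts of the total; the exact binomial upper bounds are 0.0767% and 0.0737%. Intervals and limits cover counting error only.

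Other features of the libraries moved along with these values. The nuclear RNA Malat1 was at 4665 and 4722 CPM in GL261 and at 2855, 3331, 4541 and 7445 CPM in the GL261-GSCs, so that it too was higher in replicates 3 and 4. Neat1, the other nuclear RNA examined, overlapped between the pairs of GL261-GSCs libraries. The ratio of replicates 3 and 4 over 1 and 2 was 1.94 for Malat1 and 1.27 for Neat1. The median mitochondrial share was 1.26% and 1.35% in replicates 3 and 4 against 0.953% to 1.11% elsewhere. The 4 neuron markers summed to 0.281 and 0.215 CPM in GL261 and to 1.24, 12.7, 51.8 and 78.4 CPM in the GL261-GSCs, of which nearly all was Syt1, with Rbfox3 at 0 in all libraries and Snap25 under 0.1 CPM. The 4 oligodendrocyte markers summed to 172 and 268 CPM in GL261 and to 163, 165, 202 and 237 CPM in the GL261-GSCs, none at 0 in all libraries. This sum hides opposite directions. Between the groups 3 of the 4 lay apart higher in the GL261-GSCs and 1 apart lower, beside 28.7% and 28.0% of all genes. Of the 4, 2 were called higher and 1 lower, beside 15.8% and 14.1% of all genes. The 4 astrocyte markers summed to 40.9 and 39.6 CPM in GL261 and to 188, 179, 112 and 129 CPM in the GL261-GSCs, with Aqp4 at 0 in all libraries. Of the 3 tested, 2 lay apart higher in the GL261-GSCs, beside 28.7% of all genes. The other, Gfap, lay apart lower, with 165 UMIs in GL261 and 3 in the GL261-GSCs, beside 28.0% of all genes. The sum was lower in GL261-GSCs replicates 3 and 4 than in 1 and 2, but by gene 1 lay below and 2 overlapped. Of all genes tested 31.2% lay below. The 5 fibroblast and pericyte markers, nearly all Col1a1, summed to 252 and 287 CPM in GL261 and to between 11.1 and 26.8 CPM in the GL261-GSCs. The part of these differences in the members' values was not tested. The summed myeloid markers were at 13.1 and 12.9 CPM in GL261, nearly all Csf1r, and under 0.4 CPM in the GL261-GSCs, the endothelial markers under 2 CPM and the erythroid markers under 0.1 CPM in all libraries. The 8 dissociation stress genes summed to 487 and 346 CPM in GL261 and to 457, 382, 383 and 342 CPM in the GL261-GSCs, without the members' order.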

How the data were processed

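Expression was measured by droplet single-cell RNA sequencing in 2 GL261 and 4 GL261-GSCs libraries. The deposited values are whole-number UMI counts per gene and barcode, unfiltered (737280 barcodes listed); per the file headers they were made with Cell Ranger 4, and per the submitters' processing notes with mm10. The annotation used for counting was not given in the sources used here; coordinates are from GENCODE M21 on GRCm38.

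Cells were barcodes with at least 10% of the 99th percentile of UMIs of the top 3000 barcodes, at least 500 genes and under 10% mitochondrial UMIs. No doublet caller was run. Between 33320530 and 79472306 UMIs per library lay in cells. Counting error weighs most on members under 50 UMIs. It can also exceed the spread between the 2 GL261 libraries where these lie very close. An example is Mxi1, with an SD of 0.04 CPM at 1457 and 1306 UMIs. UMIs were summed over cells per library, filtered with filterByExpr, scaled by TMM and tested with edgeR 4.0.16 (R 4.3.3), adjusted over 18439 genes. CPM values use TMM-scaled totals, and SEs are the log2 fold change divided by the root of F. On simulated data 153 of 200 genes changed by 2 on the log2 scale were recovered, with 9 false calls among 17955 genes. For values per cell, cells were thinned to 2000 UMIs. The replicate numbers were checked for pairing: deviations correlated at -0.0071 for replicate 1 and 0.0705 for replicate 2. With 2 GL261 libraries their deviations mirror each other, so this check cannot exclude a pairing. The labels give no shared batch, and no pairing was used.

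Members, lists and the rule for named genes were chosen with earlier results of these data known, including the order of the GL261-GSCs libraries. Named were all members, the listed paralogs and, per pathway list, up to 3 called genes with the largest change in each direction; 1 gene named by this rule is not reported here. Alternatives were other scalings and tools (DESeq2 1.42.0, limma 3.58.1), cell filters, thinning, and leaving out libraries; the window of 6000 to 12000 UMIs was added after seeing the libraries' depth.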

Additional observations from a re-analysis of the deposited data

How the results depend on the processing

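The call counts of members rest on few libraries. Members called higher (7) numbered 0 to 9 when 1 library was left out, 0 without either GL261 replicate and 3 without GL261-GSCs replicate 3. With GL261-GSCs replicates 3 and 4 only they were 22, beside 5171 of all genes, a fit whose number of tested genes is not given here. The members were chosen with the order of these libraries known, so the 22 describe this order and do not test it. Members called lower (2) numbered 0 to 2 with 1 library left out, 1 with library size scaling, 1 with a mitochondrial limit of 5%, 1 in cells of 6000 to 12000 UMIs, and 7 with GL261-GSCs replicates 1 and 2 only. Genes called higher numbered 843 to 3372 with 1 library left out, 1934 in thinned cells and 5171 with replicates 3 and 4 only; genes called lower 974 to 2821 and 4710; pathway genes 13 to 31 and 51. In a fit with a replicate block, which leaves only replicates 1 and 2 of each group to inform the contrast, 8 members were higher and 6 lower. The labels do not say that the replicate numbers pair the samples. Counts of all genes called are not given here for this fit or the fit with replicates 1 and 2 only. The member counts of these fits are therefore not set against a share of all genes. The cause of the changes in call counts was not tested, beyond the fewer libraries in each fit.

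Many directions turned where GL261-GSCs replicates 3 and 4 carried no weight, and others turned under other settings. In the replicate block fit, and in the fit with replicates 1 and 2 only, the log2 fold changes were 0.039 and 0.047 for Hif1a, -0.28 and -0.27 for Hk1, -0.14 and -0.13 for Hk2, -0.26 in both for Gpi1, -0.19 and -0.17 for Pfkp, -0.57 in both for Aldoa, -0.30 and -0.28 for Tpi1, -0.24 and -0.16 for Pgk1, -0.077 and -0.071 for Pgam1, -0.099 and -0.092 for Eno1, 0.14 and 0.15 for Pfkfb3 and -0.40 in both for P4ha1. Replicates 3 and 4 only gave 0.34 for Egln1, 0.19 for Pkm and 0.42 for Ldha. Library size scaling gave 0.12 for Hif1a, 0.14 for Egln1, 0.043 for Pkm, 0.042 for Ldha and 0.056 for Pfkfb3. Cells of 6000 to 12000 UMIs gave 0.18 for Hif1a, 0.26 for Egln1, 0.094 for Pkm and 0.16 for Ldha; thinned cells gave 0.016 for Hif1a and 0.11 for Egln1, and the 5% mitochondrial limit 0.0034 for Egln1. With 1 library left out, the values ranged from -0.19 to 0.12 for Egln1, -0.34 to 0.11 for Ldha, -0.24 to 0.025 for Pkm, -0.059 to 0.019 for Hif1a, -0.040 to 0.50 for Aldoa and -0.18 to 0.022 for Pfkfb3. None of the 9 called members turned. The ratio of GL261-GSCs replicates 3 and 4 over 1 and 2 was 2.0 to 2.69 for the summed glycolytic enzymes and 2.31 to 2.68 for the other members over all settings that keep these 4 libraries. Depth limited the 4 members with at most 30 UMIs.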
